A study of Mus musculus with 6 samples.

Results

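The genes described here are 36 intracellular adaptors of the integrin adhesome, the protein layer that ties integrins in the cell membrane to the actin cytoskeleton. They were chosen by symbol from the 27179 features of the deposited table, and all 36 had a mean of at least 10 normalised counts over the 6 libraries. RNA came from kidney glomeruli, isolated by perfusing magnetic beads, of 9-week-old males of a strain given as C57BL/6 mixed. All 6 libraries came from mice with floxed Parva, the gene of alpha-parvin, and the labels describe the animals as mildly proteinuric. The mice of the 3 KO libraries also carried a Cre transgene that is active in podocytes. Those of the 3 libraries named WT were Parva-fl/fl, with no Cre in the label, so the controls carry the floxed allele too. The labels do not say whether each library came from a separate mouse, and p-values measure the spread between these libraries.

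Integrins have short cytoplasmic tails and no enzyme activity, and act through adaptors. Talins and kindlins bind the beta-chain tail and switch the integrin to its active state. Vinculin, alpha-actinins, filamins and VASP join the site to actin, while paxillin, focal adhesion kinase and Src carry signals from it. Alpha-parvin works in the same layer, bound to integrin-linked kinase and, directly or through it, to paxillin and actin. In podocytes, adhesion to the glomerular basement membrane through integrin alpha3beta1 holds the foot processes in place.

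Whole reads recovered per library ranged from 11886828 to 20552984. Values are given below in the order of the replicate numbers, WT first. The targeted gene, Parva, had 6585, 7520 and 7890 normalised counts in WT and 2288, 2338 and 1942 in KO, and was thus lower in every library labelled KO. A count per gene does not show which exons the remaining reads cover, and the libraries also hold cells without Cre. In whole glomeruli, fewer cells of a type and less RNA per cell cannot be told apart. All 24 podocyte markers were above 0 in every library, with summed levels of 299791 to 378981 normalised counts in WT and 207337 to 294401 in KO. Of these 24 markers 9 fell, none rose and 21 had a lower mean in KO, and neither edgeR nor DESeq2 called any higher. Markers of the proximal tubule, which lies outside the glomerulus, summed to 127065 to 283688 in WT and 328790 to 504036 in KO, and 23 of the 24 rose. Of 20 glomerular endothelial markers 16 fell, and of 14 mesangial markers 10 fell. WT-1 had the highest tubule marker level of the WT libraries, with a mean log2 level of 12.44 against 11.25 in WT-2 and in WT-3. A set of 10 genes with extreme counts in single libraries, Pxn in KO-1 among them, took 17.4% to 32.4% of the reads of the WT libraries and KO-1 and 0.239% to 0.241% in KO-2 and KO-3.

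Of the 36 adaptors, 6 fell and 3 rose in KO against WT. The genes that fell were Fhl2, Tns3, Vcl, Fermt2, Vasp and Ptk2, by log2 fold changes from -0.78 to -0.32. Those that rose were Tln2, Fermt1 and Src, by 1.62, 1.35 and 0.62. The other 27 did not pass limma's test at an adjusted p of 0.05, and apart from Pxn their log2 fold changes lay between -0.64 and 0.24. Among all 13946 genes tested, 8.58% fell and 13.5% rose, against 16.7% and 8.33% of the adaptors. The median log2 fold change of the 36 was -0.14, against -0.01 over all genes tested. In 12 of the 36 adaptors (33.3%) every KO library lay on the same side of every WT library, where the share over all genes tested was 45.1%. On the recovered reads, edgeR called 5 adaptors lower and 2 higher (8.25% and 12.1% over all genes), and DESeq2 called 7 lower and 3 higher (10.5% and 16.8%). Upper quartile scaling in limma also gave 7 lower and 3 higher (11.0% and 12.3%), and moved the median of all genes from -0.01 to -0.06.

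Leaving out any of 4 libraries ended nearly all calls across the 13946 genes, the 9 adaptors included. Without WT-2, WT-3, KO-2 or KO-3, limma called 1, 0, 4 and 3 genes, and none of the 36 adaptors. At an unadjusted p below 0.05 these fits held 3939, 4048, 4021 and 4924 genes, and 9, 10, 11 and 16 adaptors. In edgeR the same fits called 1, 0, 0 and 1 genes and no adaptor. At an unadjusted p below 0.05 edgeR held 3895, 3962, 3975 and 4895 genes, and 10, 10, 12 and 17 adaptors. Without KO-1, 3 adaptors fell and 2 rose in limma (over all genes 5.60% and 9.19%). In edgeR 1 fell, Fhl2, and 2 rose, where 504 of all 13946 genes fell and 682 rose. Without WT-1, 10 fell and 3 rose in limma (12.2% and 18.6%), and as many in edgeR (1687 and 2620 of all 13946 genes).

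**Figure D1:**
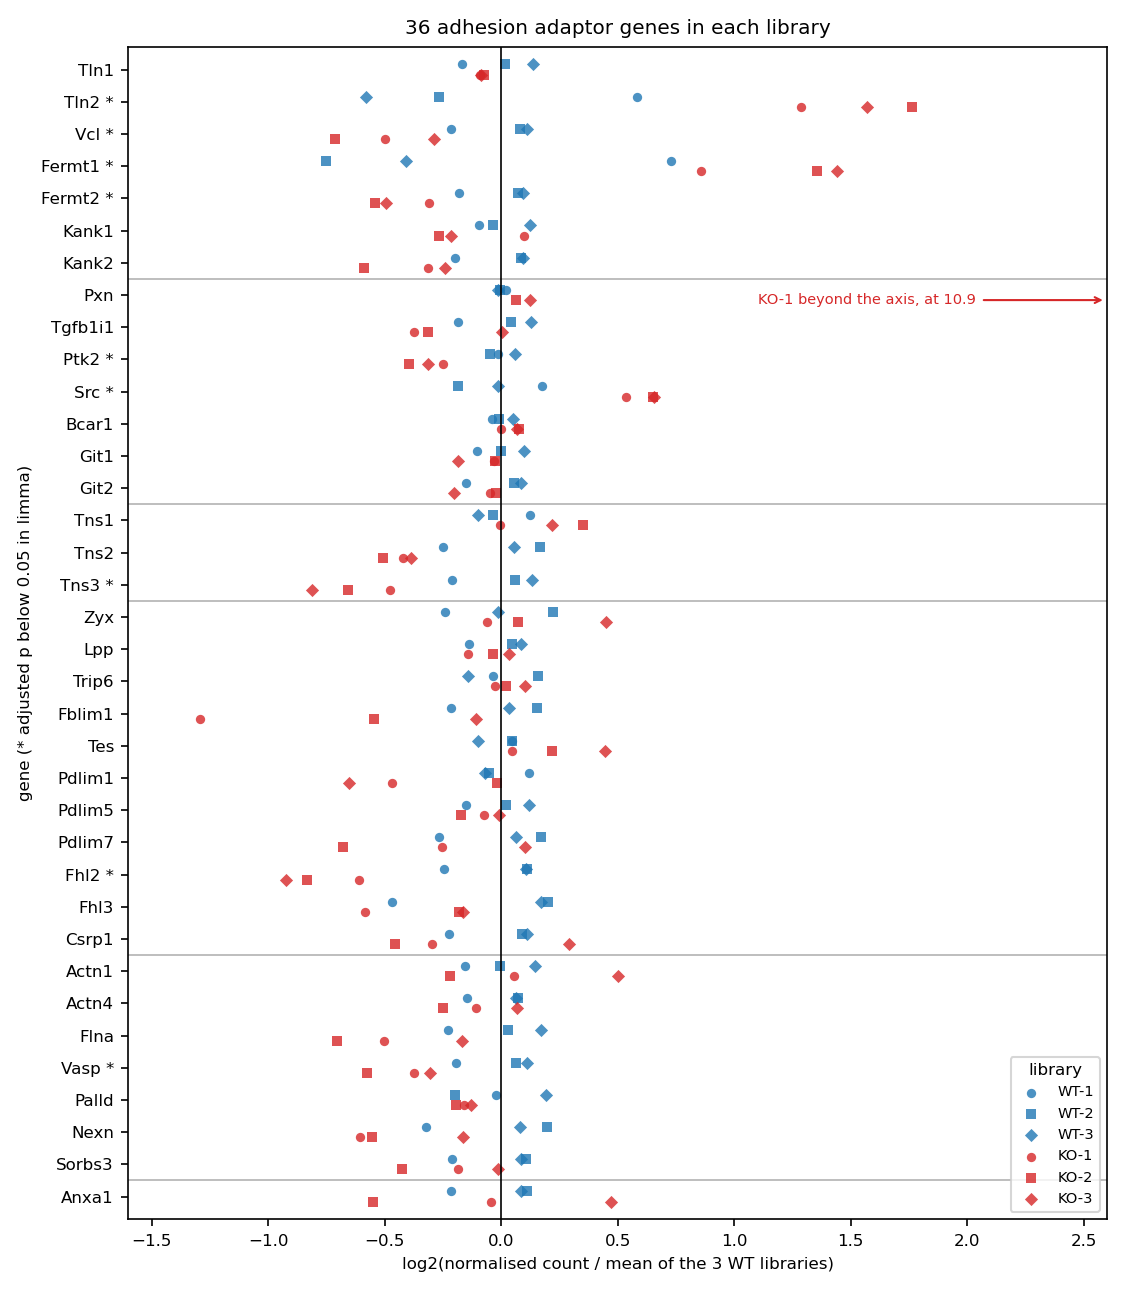
Each point is 1 library's normalised count of a gene, as log2 of its ratio to the mean of the 3 WT libraries (x axis); genes are grouped by role, and WT is blue and KO red. The red points of Tln2, Fermt1 and Src lie right of all blue points and those of Fhl2, Tns3, Vcl, Fermt2, Vasp and Ptk2 left of them, while Pxn in KO-1 lies far beyond the axis.

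The talin and kindlin genes split within each family. Tln1, the widely expressed talin, had 3835, 4362 and 4739 normalised counts in WT and 4050, 4095 and 4061 in KO. All 3 KO values lay inside the WT range, with a KO-to-WT log2 difference of -0.08 ± 0.11 (SE, limma adjusted p = 0.611). Tln2, its paralogue, had 642, 356 and 286 in WT and 1044, 1455 and 1270 in KO. Every KO library was above every WT library, and Tln2 rose by a KO-to-WT log2 difference of 1.62 ± 0.29 (SE, limma adjusted p = 0.0286). Per kilobase of annotated exon, Tln1 stood at 440 normalised counts in WT and 415 in KO, and Tln2 at 23.3 and 68.4, so that Tln1 remained the more abundant talin transcript in both groups.

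Kindlins are the second class of integrin activators, and Fermt2 encodes kindlin-2, the form known from podocytes and most adherent cells. Fermt2 had 3737, 4456 and 4528 normalised counts in WT and 3422, 2916 and 3013 in KO. The groups did not overlap, and Fermt2 fell with a KO-to-WT log2 difference of -0.44 ± 0.12 (SE, limma adjusted p = 0.0381). Fermt1 encodes kindlin-1, the epithelial form. It had 185, 66.3 and 84 normalised counts in WT and 202, 286 and 303 in KO, and rose by 1.35 (SE 0.37, limma adjusted p = 0.0421). The groups were separated narrowly, as WT-1 at 185 lay just under KO-1 at 202. Per kilobase, Fermt2 stood at 817 and 600.5 normalised counts in WT and KO, and Fermt1 at 19.6 and 46.2.

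Vcl encodes vinculin, which binds stretched talin and actin. It had 2902, 3563 and 3631 normalised counts in WT and 2381, 2053 and 2752 in KO. The groups did not overlap, and Vcl fell with a KO-to-WT log2 difference of -0.49 ± 0.14 (SE, limma adjusted p = 0.0461). The call was lost in edgeR on the recovered reads (adjusted p = 0.0502), as was that of Fermt1 (adjusted p = 0.0556). Kank1 and Kank2 encode talin-binding proteins at the rim of adhesions. Kank2 had 1631, 1989 and 2002 in WT and 1505, 1247 and 1583 in KO, and did not pass although the groups did not overlap (log2 fold change -0.38, SE 0.13, limma adjusted p = 0.0726). Kank1 overlapped between the groups, with a KO-to-WT log2 difference of -0.13 ± 0.12 (SE, limma adjusted p = 0.476).

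Ratios of related genes within a library do not depend on how the libraries are scaled. Counts of Tln2 per count of Tln1 were 0.167, 0.0817 and 0.0604 in WT-1 to WT-3 and 0.258, 0.355 and 0.313 in KO-1 to KO-3. The ratio of Fermt1 to Fermt2 was 0.0494, 0.0149 and 0.0185 in WT and 0.0590, 0.0980 and 0.100 in KO. In both, every KO value was above every WT value, with the closest approach between WT-1 and KO-1, and the geometric means differed 3.26-fold and 3.49-fold. An exact two-sided permutation test gave p = 0.1 for each, the smallest value that 3 against 3 libraries allow, and 0.25 after Benjamini-Hochberg adjustment over the 10 ratios computed.

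**Figure D2:**
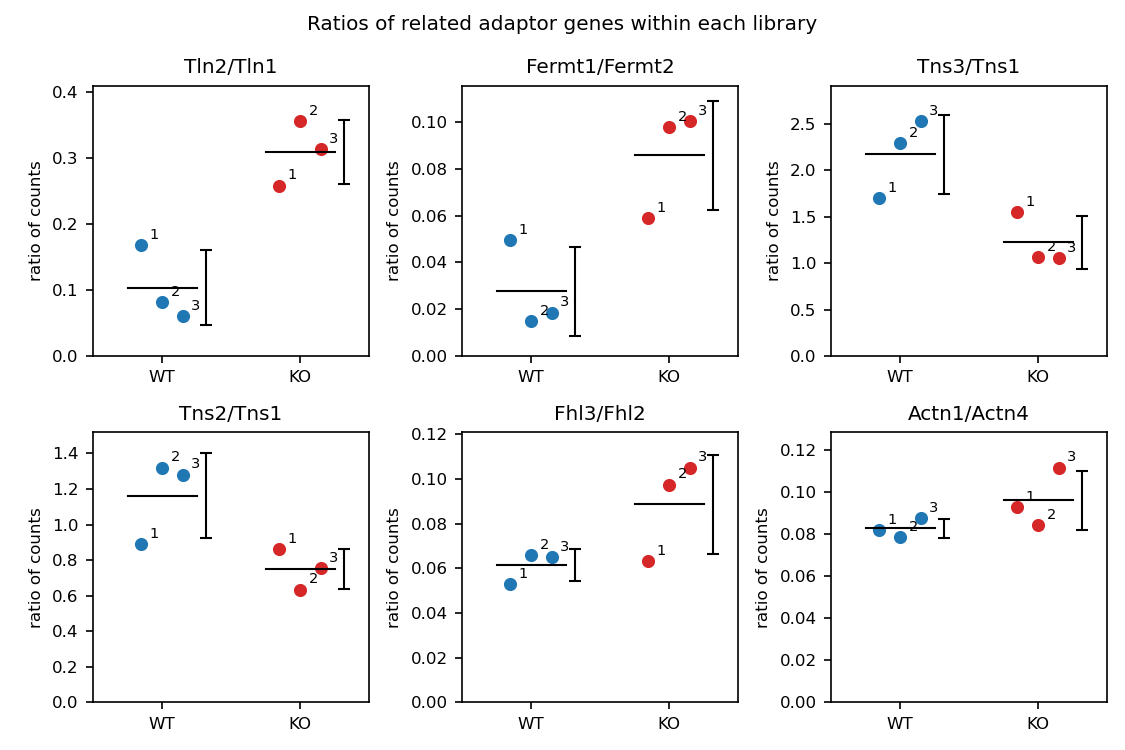
Points are single libraries, labelled with their replicate number, and give the ratio of normalised counts of 2 related genes (y axis, starting at 0); lines are means and bars the SD of 3 libraries. KO lies above WT in every library for Tln2/Tln1 and Fermt1/Fermt2, below it for Tns3/Tns1 and Tns2/Tns1, and the groups overlap for Fhl3/Fhl2 and Actn1/Actn4.

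Among the signalling adaptors, 1 kinase fell and another rose. Ptk2 encodes focal adhesion kinase, which phosphorylates partners when integrins are engaged. It had 1174, 1146 and 1232 normalised counts in WT and 995, 900 and 953 in KO. Both groups were tight and did not overlap, and Ptk2 fell with a KO-to-WT log2 difference of -0.32 ± 0.08 (SE, limma adjusted p = 0.0363). Src encodes the tyrosine kinase that binds autophosphorylated focal adhesion kinase. It had 262, 204 and 230 in WT and 336, 365 and 366 in KO, without overlap, and rose by 0.62 (SE 0.12, limma adjusted p = 0.0286).

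Pxn, the gene of the scaffold paxillin, was dominated by a single library. It had 1569, 1541 and 1531 normalised counts in WT and 1615 and 1685 in KO-2 and KO-3, but 2871730 in KO-1. In whole reads Pxn took 3241459 of the KO-1 library, or 16.2% of it, against 0.00894% to 0.0125% of the others. With KO-1 the log2 fold change was 3.68 (SE 2.66, limma adjusted p = 0.336), and without it 0.09 (SE 0.09, limma adjusted p = 0.485). The 5 other libraries spanned only 1531 to 1685. Bcar1 (p130Cas, a docking protein for Src), Git1 and Git2 (paxillin-binding regulators of small GTPases) and Tgfb1i1 (Hic-5, a paxillin relative) overlapped between the groups, with log2 fold changes of 0.05, -0.08, -0.09 and -0.22. Counts of Git2 per count of Git1 hardly varied, from 0.568 to 0.612 over the 6 libraries.

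Tensins bind integrin tails and actin, and in WT Tns1, Tns2 and Tns3 stood at 403, 1363 and 1243 normalised counts per kilobase. Tns3 had 11996, 14455 and 15236 normalised counts in WT and 9983, 8800 and 7909 in KO. It fell without overlap of the groups by a KO-to-WT log2 difference of -0.64 ± 0.15 (SE, limma adjusted p = 0.0322). Tns2, in which variants are known to cause nephrotic disease, had 6255, 8331 and 7714 in WT and 5545, 5222 and 5680 in KO. Its groups did not overlap either, but it did not pass (log2 fold change -0.43, SE 0.13, limma adjusted p = 0.0562). It passed under upper quartile scaling (limma adjusted p = 0.0451), in DESeq2 (adjusted p = 0.0146) and without WT-1 (limma adjusted p = 0.0109). It did not pass in edgeR (adjusted p = 0.0536) or without any other library (limma adjusted p from 0.104 to 0.179). With the proximal tubule marker level as a covariate its log2 fold change was -0.03 (SE 0.18).

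Tns1 did not pass and its groups overlapped. It had 7042, 6312 and 6024 normalised counts in WT and 6436, 8236 and 7516 in KO, with a KO-to-WT log2 difference of 0.19 ± 0.13 (SE, limma adjusted p = 0.314). Within a library, Tns3 exceeded Tns1 by 1.7, 2.29 and 2.53 times in WT and by 1.55, 1.07 and 1.05 times in KO. Tns2 per count of Tns1 was 0.888, 1.32 and 1.28 in WT and 0.862, 0.634 and 0.756 in KO. Neither ratio overlapped between the groups (exact permutation p = 0.1 for each, 0.25 adjusted over the 10 ratios).

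The LIM proteins, built of paired zinc fingers, held 1 call among 11 genes. Fhl2, a LIM-only protein that moves between adhesions and the nucleus, had 2457, 3137 and 3133 normalised counts in WT and 1907, 1633 and 1533 in KO. The groups were well apart, and its fall, -0.78 on the log2 scale (SE 0.13, limma adjusted p = 0.0286), was the largest among the 36. Its paralogue Fhl3 had 130, 207 and 203 in WT and 120, 159 and 161 in KO, and did not pass (log2 fold change -0.27, SE 0.22, limma adjusted p = 0.388). The ratio of Fhl3 to Fhl2 overlapped between the groups (exact permutation p = 0.3).

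Zyx, Lpp and Trip6, the zyxin family that gathers at strained actin fibres, had log2 fold changes of 0.17, -0.05 and 0.04 (Trip6 -0.02 under upper quartile scaling), and Tes (testin) one of 0.24. The PDZ and LIM genes Pdlim1, Pdlim5 and Pdlim7 had -0.37, -0.08 and -0.27. Csrp1, a muscle-type LIM protein, was uneven in KO, at 3075, 2751 and 4619 in KO-1 to KO-3 against 3231, 4014 and 4080 in WT. Fblim1 (migfilin, which binds filamin and kindlin) had 127, 164 and 151 in WT and 60.2, 101 and 137 in KO. Its log2 fold change of -0.64 was as large as that of Tns3, but the groups overlapped and the SE was 0.29 (limma adjusted p = 0.151).

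Of the 7 actin crosslinkers and filament adaptors, Vasp passed. This gene, whose product speeds the growth of actin filaments at adhesions, had 1493, 1785 and 1840 normalised counts in WT and 1314, 1143 and 1381 in KO. It fell without overlap by a KO-to-WT log2 difference of -0.41 ± 0.12 (SE, limma adjusted p = 0.0448). With no filter on low values the call was lost (limma adjusted p = 0.0534), as was that of Vcl (limma adjusted p = 0.0538). Actn4, the alpha-actinin mutated in a familial form of focal segmental glomerulosclerosis, had 12115, 14092 and 13994 in WT and 12416, 11278 and 14042 in KO, with overlapping groups (log2 fold change -0.09, SE 0.15, limma adjusted p = 0.665). It was the most abundant of the adaptors per length in WT, at 2187 normalised counts per kilobase. Its relative Actn1 had 993, 1105 and 1225 in WT and 1151, 950 and 1566 in KO (log2 fold change 0.12, limma adjusted p = 0.67).

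Flna, the filamin that crosslinks actin under the membrane, had 3955, 4719 and 5211 in WT and 3266, 2843 and 4122 in KO, and overlapped through KO-3 and WT-1 (log2 fold change -0.45, SE 0.17, limma adjusted p = 0.0896). Nexn (nexilin) had -0.42 (SE 0.18, limma adjusted p = 0.122), Sorbs3 (vinexin, a vinculin partner) -0.20 and Palld (palladin) -0.15. Anxa1, a calcium-dependent membrane binder with roles in resolving inflammation, was uneven in KO, at 4064, 2857 and 5795 in KO-1 to KO-3 against 3601, 4512 and 4438 in WT.

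Many adaptors shared the order of the libraries within a genotype. WT-1 was the lowest WT library for 26 of the 36 adaptors (72.2%), against 38.2% of all genes tested, and for 5 of the 6 that fell. It was the highest WT library for all 3 that rose, and for 37.1% of all genes tested. KO-3 was the highest KO library for 23 of the 36 (63.9%), against 33.8% of all genes tested. Vcl, Csrp1, Actn1, Flna, Zyx and Anxa1 were among these. The mean log2 level of the 12 leukocyte markers that passed the filter was also highest in KO-3, at 6.9 against 4.93 to 5.87 elsewhere. Of the 15 listed, Cd3e and Cd3g were at 0 in some libraries and are not part of that mean. For 8 smooth muscle and renin markers, of which 3 fell and 1 rose, the mean log2 level was 9.10, 8.83 and 9.34 in KO and 9.24 to 9.43 in WT. The part of these markers in the KO-3 values was not tested.

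The tubule marker level moved with the 9 calls. With the mean log2 level of the 24 proximal tubule markers as a covariate, limma called none of the 36 adaptors and none of all genes (0 adaptors and 399 genes at an unadjusted p below 0.05). The 6 genes that had fallen kept negative values, from -0.28 for Fhl2 and -0.25 for Ptk2 to -0.07 for Vasp and -0.06 for Fermt2. Ptk2 retained most of its value, at -0.25 (SE 0.16) against -0.32, and Vcl stood at -0.14 (SE 0.23) and Tns3 at -0.20 (SE 0.20). Tln2 stood at 0.36 (SE 0.21) and Src at 0.27 (SE 0.21), but Fermt1 turned to -0.28 (SE 0.29). The covariate itself differs between the genotypes, so genotype and tubule content cannot be fully told apart in 6 libraries.

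**Figure D3:**
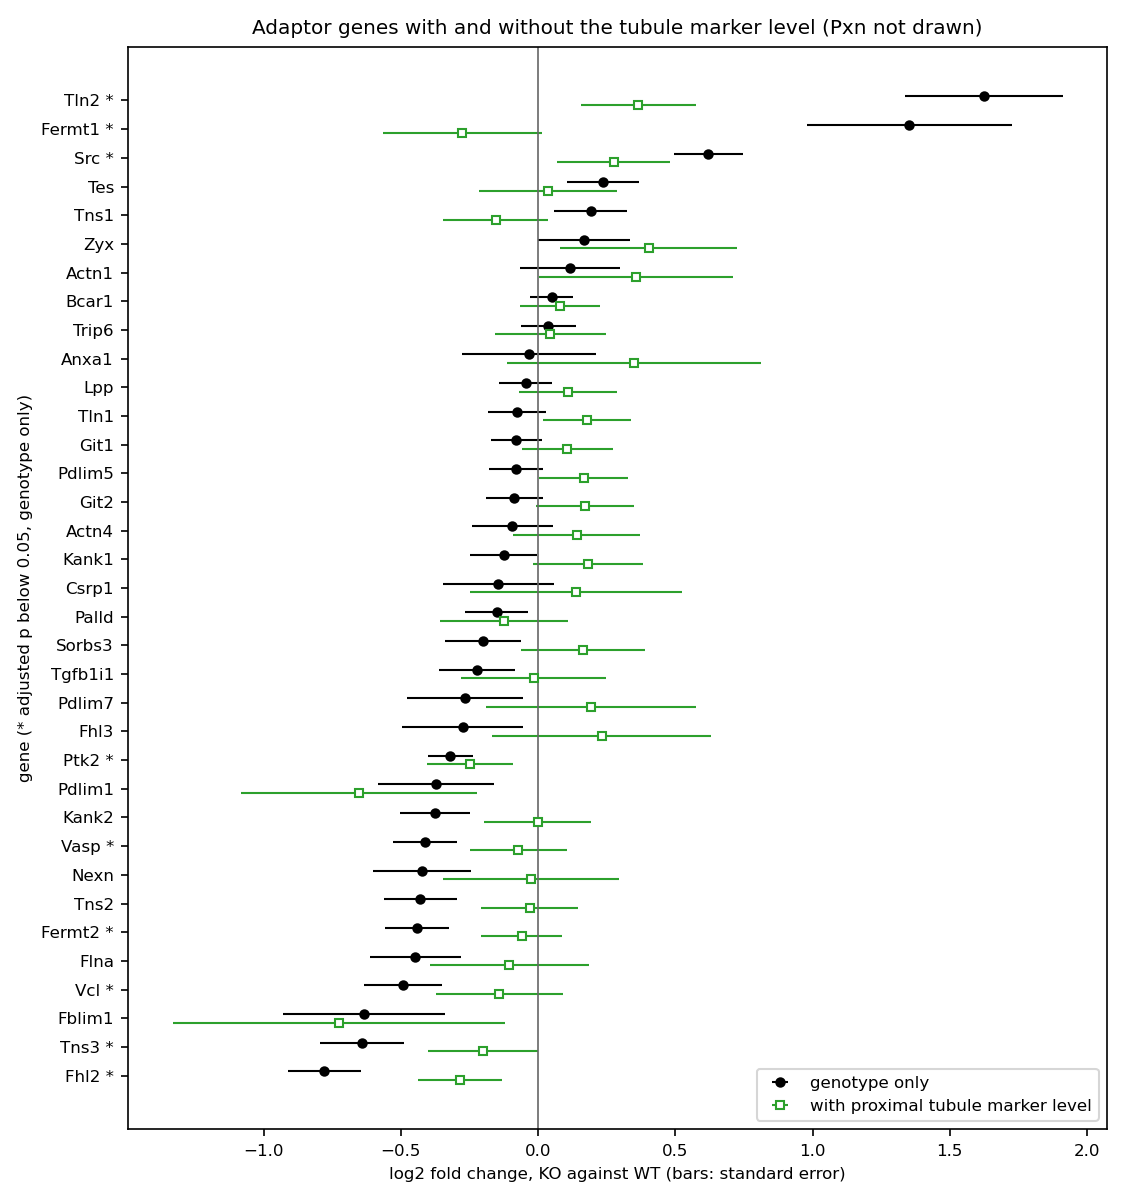
Points give the log2 fold change of each adaptor except Pxn (x axis; bars are the standard error) fitted with genotype only (black) and with the proximal tubule marker level as a covariate (green). For all 9 called genes the green point lies closer to 0 than the black one, with Ptk2 the least moved of them, and Fermt1 crosses from 1.35 to -0.28.

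Markers of the glomerular cells give a scale for these falls. The median log2 fold change was -0.46 over the 24 podocyte markers, -0.60 over the endothelial and -0.66 over the mesangial ones. Vcl, Fermt2, Vasp and Ptk2, at -0.49, -0.44, -0.41 and -0.32, lay close to the podocyte median or above it, Tns3 at -0.64 lay near the endothelial and mesangial ones, and Fhl2 at -0.78 lay below all 3 medians. Over the 24 proximal tubule markers the median log2 fold change was 1.52, where Tln2 rose by 1.62, Fermt1 by 1.35 and Src by 0.62. Whether any adaptor fell or rose more than these markers was not tested.

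**Figure D4:**
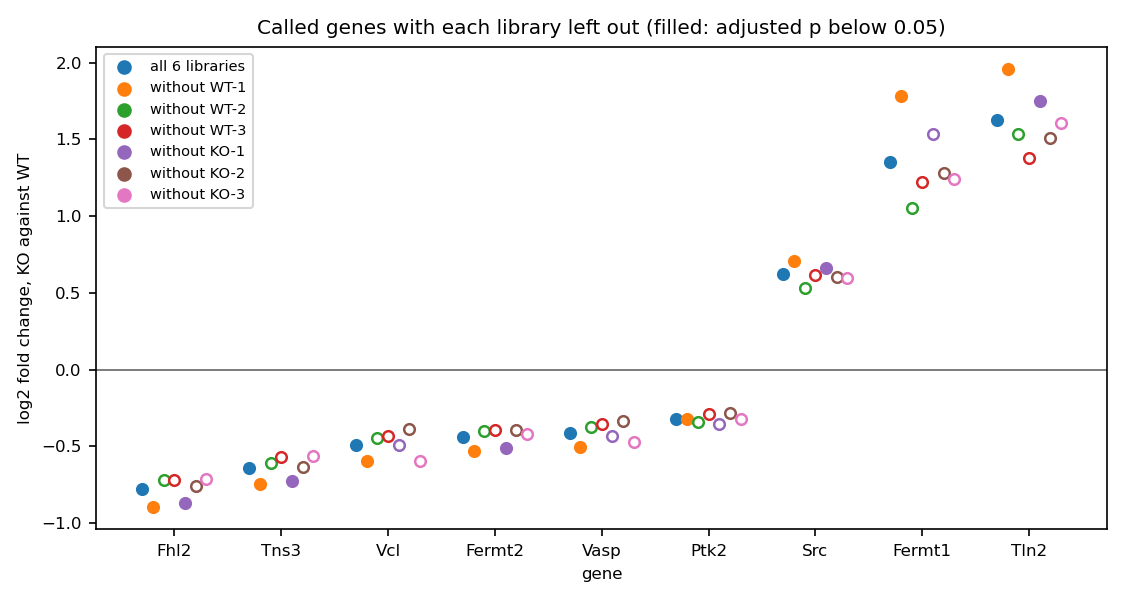
Each point is the log2 fold change (y axis) of a called adaptor in limma with all 6 libraries or with 1 left out; filled points had an adjusted p below 0.05. The sign could not change, because the WT and KO libraries of these genes did not overlap. Of the fits with 1 library left out, only those without WT-1 or without KO-1 kept filled points.

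Fits without 1 library moved the sizes of the 9 called genes. Fhl2 ranged from -0.90 to -0.71, Tns3 from -0.74 to -0.56, Ptk2 from -0.35 to -0.28 and Src from 0.53 to 0.71. Tln2 ranged from 1.38 to 1.96 and Fermt1 from 1.05 to 1.79. The WT and KO libraries of each of the 9 did not overlap, so leaving out 1 library could not change a sign. Of the 6 fits, Fhl2, Tns3, Fermt2, Src and Tln2 passed in only 2, and Vcl, Fermt1, Ptk2 and Vasp in 1. Without WT-1, Kank2, Tns2, Flna and Nexn also fell (limma adjusted p = 0.0255, 0.0109, 0.0391 and 0.0313).

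Several adaptor genes, Vcl among them, are known targets of SRF, a transcription factor that binds the CArG box and whose cofactor MRTF is held back by unpolymerised actin. The CArG box was searched, on both strands, in RefSeq promoter windows of 300 bases, from 250 before to 50 after a transcript's start (build GRCm38.p6). Windows were found for 30 of the 36 genes, 40 windows in all, and 5 windows of 4 genes held a box. Of all 32851 windows 1.63% held one. The boxes belonged to Fhl2 (in both of its windows), Vcl and Fermt2, which are 3 of the 5 fallen genes with a window, and to Trip6, which did not pass. Inner and outer below name the Fhl2 starts that have a window, and the RefSeq gene reaches further out than the outer one. Fermt1 and Src, the 2 risen genes with a window, held none in this window. The 30 bases around each box are shown on the strand of the gene because 3 of these 4 genes fell. The motif was chosen after values were seen, and a part of SRF in the falls was not tested. Capitals mark the box.
Vcl, 227 bases before the start, upstream of the gene, chr14:20929161-20929190, + strand: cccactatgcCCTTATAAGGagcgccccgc
Fermt2, 204 bases before the start, inside the RefSeq gene but upstream of the GENCODE one, chr14:45530250-45530279, - strand: tccttcatttCCATAAAAGGgcagcgctcc
Fhl2, 31 bases before its inner start, in an intron of the longer transcripts, chr1:43163973-43164002, - strand: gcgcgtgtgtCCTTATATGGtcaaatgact
Fhl2, 96 bases before its outer start, in an exon of another transcript, chr1:43196838-43196867, - strand: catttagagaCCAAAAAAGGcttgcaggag
Trip6, just after the start, in an exon, chr5:137314221-137314250, - strand: gtggtcgtctCCAAAATTGGggaggaaggg

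The box of Vcl and that of the inner Fhl2 start lie in different surroundings, the first far from the start and the second close to it. The bases before each start show this, again with the box in capitals: 250 for Fhl2, and for Vcl the 235 that lie outside the RefSeq gene.
Vcl, chr14:20929148-20929382, + strand: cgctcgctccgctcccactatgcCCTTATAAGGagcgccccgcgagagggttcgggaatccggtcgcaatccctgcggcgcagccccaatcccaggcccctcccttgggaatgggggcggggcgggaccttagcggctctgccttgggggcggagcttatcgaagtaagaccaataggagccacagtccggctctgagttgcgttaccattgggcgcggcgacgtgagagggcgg
Fhl2 inner start, chr1:43163962-43164211, - strand: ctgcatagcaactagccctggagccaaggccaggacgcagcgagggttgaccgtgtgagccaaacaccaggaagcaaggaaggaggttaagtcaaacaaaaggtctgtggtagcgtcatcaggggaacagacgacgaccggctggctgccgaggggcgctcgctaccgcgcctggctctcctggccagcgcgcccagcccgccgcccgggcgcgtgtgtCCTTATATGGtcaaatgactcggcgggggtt

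Of 25 measured genes on a list of other SRF and MRTF targets, none fell and 2 rose (8.0%) in limma. Over all genes tested 8.58% fell and 13.5% rose. The median log2 fold change of the 25 was -0.05. At an unadjusted p below 0.05 there were 3 in either direction, and edgeR and DESeq2 also called none lower and 2 higher. Ccn1, a secreted matricellular protein, had 791, 685 and 678 normalised counts in WT and 1463, 1434 and 1625 in KO, and rose by 1.07 (SE 0.10, limma adjusted p = 0.0217). Tagln, an actin-binding smooth muscle protein, had 629, 551 and 650 in WT and 1254, 1359 and 3386 in KO, and rose by 1.56. Of 22 windows of this list, 4 held a CArG box. The list does not hold every known target. It leaves out Myh11 and Des, counted here among the smooth muscle and mesangial markers. They fell by log2 fold changes of -0.68 and -0.61, among markers of which 3 of 8 and 10 of 14 fell. Tagln is also the 1 smooth muscle and renin marker that rose.

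The other adaptors and signalling genes of cell-matrix adhesion gave the wider setting. Of 62 measured, 14 fell (22.6%) and 4 rose (6.45%), against 8.58% and 13.5% of all genes tested, with a median log2 fold change of -0.22. The 5 with the smallest adjusted p were Ptk2b, the kinase closest to focal adhesion kinase, at 1.51, Asap2 at -0.72, Sorbs2, a relative of vinexin, at -0.63, Kank3 at -0.79 and Fhl1, a relative of Fhl2, at 0.64. Ptk2b had 248, 111 and 134 normalised counts in WT and 395, 522 and 415 in KO, so it rose while Ptk2 fell. Fhl1 had 1538, 1191 and 1093 in WT and 1969, 1954 and 1984 in KO, so it rose while Fhl2 fell. WT-1 was the highest WT library for both, as it was for Tln2, Fermt1 and Src.

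Of 23 measured integrin chains, the receptors these adaptors bind, 4 fell (17.4%) and 1 rose (4.35%), with a median of -0.05. The shares over all genes tested were 8.58% and 13.5%. Itga8, also counted among the mesangial markers, Itga4, Itga9 and Itgb5 fell by log2 fold changes of -0.79, -0.75, -0.75 and -0.65, and Itgb6, an epithelial chain, rose by 1.44. In the complex of integrin-linked kinase, PINCH and parvin, Parva and Parvb fell among 7 genes (28.6%), Parva being the deleted gene.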

How the data were processed

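The deposited file gives, for each NCBI Gene identifier and library, a normalised count: a signal from which the authors had removed library size, per the file headers and the values. The submitters' processing notes name bcl2fastq 2.19 and cutadapt 1.16.5 for reads, HISAT2 2.1 with mm10 for alignment, featureCounts 1.6.4 for counting and DESeq2 2.11.40.6. The kit marks strand, per the labels' protocols. The counting's strand setting, annotation release and rule for reads with several hits were not given in the sources used here, so overlapping genes and close paralogues may hold each other's reads. Within a library all values are multiples of the worth of 1 read (100% at a tolerance of 0.01), which gave back whole reads for count tests. Groups and replicate numbers came from the sample titles, with 3 libraries per genotype.

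Genes were tested with limma 3.58.1 (R 4.3.3) and a variance trend, on log2(normalised count + 1), where the mean over 6 libraries reached 10 (13946 genes). P-values were two-sided, Benjamini-Hochberg adjusted over all of them, with a threshold of 0.05. The reported log2 differences use the same scale. Alternatives were count tests on the recovered reads with edgeR 4.0.16 (2841 genes called) or DESeq2 1.42.0 (3810 genes called) and the settings named in the closing section. Steps were tested on simulated data. The members, roles, gene lists and covariate were chosen with earlier results of these data known, and the promoter motif and the gene ratios after values were seen. By the naming rule all members are named, and at most 5 genes of each other list. Members have values per library where they passed, did not overlap or belong to a family with a call. The rule also listed Actn1 and Actn4, neither of which passed. Values per library of Fblim1, Csrp1, Flna and Anxa1 were given outside the rule. Symbols came from RefSeq and GENCODE tables (25293 features named, 1886 not), exon lengths from GENCODE and promoter sequences from RefSeq (GRCm38.p6, the assembly of mm10). No libraries of 1 genotype agreed within sampling noise: the smallest chi-square was 14.2 per degree of freedom. Counting error is small at these depths, so the 3 libraries per group limit the precision.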

Additional observations from a re-analysis of the deposited data

How the results depend on the processing

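The main counts were 6 adaptors lower, 3 higher and 3085 genes called. They stayed within 1.5 times under both other pseudocounts, TMM and upper quartile scaling, a robust prior, other filters on low values, DESeq2 and edgeR, the widest departures being 4 lower adaptors without a filter (Vcl and Vasp lost) and 2 higher in edgeR. Limma without the variance trend called 0 adaptors in either direction and 1 gene (12 adaptors and 5305 genes at an unadjusted p below 0.05). With the tubule covariate these counts were 0, 0 and 0. Same-numbered WT and KO libraries deviated from their group means with correlations of -0.23, -0.19 and -0.01, against -0.20 to 0.34 for differently numbered ones. These few values, from deviations around means of 3 libraries, cannot exclude a pairing by number. The replicate block gave 0, 0 and 0 calls (13 adaptors and 4284 genes at an unadjusted p below 0.05). Leaving out 1 library at a time in limma and edgeR gave 0 to 10 adaptors lower, 0 to 3 higher and 0 to 4307 genes called. Signs changed in 33 of 900 values of single adaptors. With the tubule covariate the log2 fold changes were 0.18 for Tln1, -0.28 for Fermt1, 0.18 for Kank1, 0.11 for Git1, 0.17 for Git2, -0.15 for Tns1, 0.11 for Lpp, 0.17 for Pdlim5, 0.19 for Pdlim7, 0.23 for Fhl3, 0.14 for Csrp1, 0.14 for Actn4, 0.16 for Sorbs3 and 0.35 for Anxa1. Fermt1 was the only called adaptor among them. Upper quartile scaling gave -0.0083 for Bcar1 and -0.019 for Trip6, and Anxa1 stood at 0.019 in edgeR and 0.022 in DESeq2. Leaving out 1 library at a time in limma and edgeR gave ranges that cross 0 for Anxa1 (-0.29 to 0.24), Trip6 (-0.031 to 0.12), Lpp (-0.11 to 0.0019), Csrp1 (-0.37 to 0.026) and Actn1 (-0.078 to 0.29). Beyond what each alternative changes by construction, the cause was not tested.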
